A study of Homo sapiens with 8 samples.

Results

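The U2 rows of the count table were taken by name: RNU2-1, every U2 row with a number after a point, and every RNU2 row with a number and the letter P, the name of a pseudogene copy. They made up 61 of 2962 small RNA features. RNU2-1 was 1 row, 14 were U2.number rows and 46 carried pseudogene names. 10 of the U2.number rows had equal counts in all 8 libraries, and with equal rows taken once 52 sets remained. An expression filter kept 51 rows (42 sets) for testing, namely RNU2-1, 13 U2.number rows and 37 pseudogene names; the 10 rows left out averaged 2.38 to 8.12 reads a library.

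HEK293 is an established line from human embryonic kidney. 4 tDR libraries came from HEK293 cells given a mimic of a 3′ fragment of tRNA-Asp-GTC (a tRNA-derived small RNA, tDR), and 4 scramble libraries from HEK293 cells given a scrambled control mimic. Both mimics were used at 50 nM with the reagent Lipofectamine RNAiMax, and cells were harvested at 48 h. Total RNA went into OTTR-seq, in which a reverse transcriptase joins both adapters while copying the RNA. It is unstated in the labels if replicates were grown and transfected apart, so a p-value here speaks only of variation among the libraries, possibly technical. Counts summed to 6910186 to 8007025 in tDR libraries and 4016295 to 10246336 in scramble libraries. All 4 HEK293 microRNAs listed were detected; of them, miR-92a-3p had a log2 fold change of -0.79 with TMM factors (adjusted p = 0.0229, edgeR). Of 5 blood microRNAs listed, 1 was among the features counted. It was miR-223-3p, with 0 to 6 reads a tDR library and 0 to 10 a scramble library. Neural miR-9-5p was detected, at 228 to 420 reads a tDR library and 240 to 657 a scramble library. From the HEK293 list, miR-10a-5p had 175 to 351 and 132 to 504. Endothelial miR-126-3p had 32 to 64 and 27 to 48 reads, and neural miR-124-3p 0 to 6 in either group.

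U2 is the small nuclear RNA that pairs with the branch point of an intron and, as part of the U2 snRNP, helps assemble the major spliceosome. Near its middle a U-rich stretch, the Sm site, binds the ring of Sm proteins that stabilises the particle. Functional U2 comes from a tandem array of nearly identical genes, while the genome also holds many scattered copies, most of them regarded as pseudogenes. A short read can match the gene and several copies alike. The labels do not state whether a read could be counted at more than 1 copy, but 10 rows of equal counts and several rows of nearly equal counts show that rows were not independent. In bulk libraries, more RNA per cell and more cells holding it cannot be told apart. RefSeq now lists 44 of the 46 pseudogene names as pseudogenes and 2, one of them RNU2-2P, as snRNA genes.

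The sequences below were set beside RNU2-1 because these 5 copies had the lowest p-values of all U2 rows. They come from the GENCODE release 29 transcripts (GRCh38) and run 5′ to 3′. RNU2-1 lies at chr17:43233787-43233977 (minus strand), within an intron of CCDC200. RNU2-7P lies at chr13:20612161-20612338 (plus), in an intron of IFT88. RNU2-33P lies at chr14:96384624-96384815 (plus), in an intron of GSKIP. RNU2-61P (chr6:89063500-89063690, minus) and RNU2-48P (chr5:157976766-157976956, minus) lie in no protein-coding gene. RNU2-37P lies at chr3:128075073-128075249 (minus), in an intron of RUVBL1. Capitals mark the longest string of bases shared by the 5 copies, 27 bases at positions 91 to 117 of RNU2-1, counted from 1 at its 5′ end.
RNU2-1: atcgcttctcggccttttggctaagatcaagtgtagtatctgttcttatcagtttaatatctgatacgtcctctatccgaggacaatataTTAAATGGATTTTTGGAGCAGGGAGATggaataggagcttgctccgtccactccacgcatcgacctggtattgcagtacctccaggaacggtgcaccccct
RNU2-7P: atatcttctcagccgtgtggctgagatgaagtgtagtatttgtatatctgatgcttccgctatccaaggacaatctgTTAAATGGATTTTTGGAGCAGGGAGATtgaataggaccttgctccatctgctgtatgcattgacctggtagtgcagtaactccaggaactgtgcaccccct
RNU2-33P: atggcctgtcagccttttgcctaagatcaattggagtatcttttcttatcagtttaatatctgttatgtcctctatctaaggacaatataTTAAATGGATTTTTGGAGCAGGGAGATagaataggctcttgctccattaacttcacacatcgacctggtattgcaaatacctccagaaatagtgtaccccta
RNU2-61P: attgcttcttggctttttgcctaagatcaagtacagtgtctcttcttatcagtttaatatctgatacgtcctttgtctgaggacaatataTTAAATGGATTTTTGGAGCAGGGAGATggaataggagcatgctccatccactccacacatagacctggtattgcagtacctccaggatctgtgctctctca
RNU2-37P: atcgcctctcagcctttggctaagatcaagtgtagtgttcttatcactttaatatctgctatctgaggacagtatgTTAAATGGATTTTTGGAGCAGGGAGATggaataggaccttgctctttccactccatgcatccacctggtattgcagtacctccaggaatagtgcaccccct
RNU2-48P: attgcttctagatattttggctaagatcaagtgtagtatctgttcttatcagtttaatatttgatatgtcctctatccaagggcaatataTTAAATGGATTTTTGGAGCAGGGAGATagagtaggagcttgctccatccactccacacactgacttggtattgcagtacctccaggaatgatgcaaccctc

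The shared string contains ATTTTTGG, the Sm site of U2, at positions 99 to 106. Those 8 letters alone occur in 26 of 71 sequences with an RNU2 name (36.6%). Of 1900 snRNA sequences 50 hold them (2.63%), with 3 on the reverse strand. The 27-base string was defined after the values of the 5 copies were seen. Of the 71 sequences with an RNU2 name in GENCODE, 6 hold it, namely RNU2-1 and these 5 copies (8.5%). Among all 1900 snRNA sequences of the annotation 18 hold it (0.947%), and none on the reverse strand. The 12 further sequences are unnamed members of the U2 family that match RNU2-1 at 190 to 191 bases. Outside the string the 5 copies differ from RNU2-1 and from each other, with 79.6% of RNU2-1 bases matched in RNU2-7P, 85.9% in RNU2-33P and RNU2-37P, and 89.0% in RNU2-48P and RNU2-61P.

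RNU2-1, the U2 gene itself, did not pass the test. In CPM, reads relative to library size after scaling by TMM factors, it had 9428, 10456, 9355 and 9071 in tDR libraries 1 to 4, against 10445, 10065, 9637 and 9893 in scramble libraries 1 to 4. The groups overlapped, at 9577 ± 605 CPM in tDR and 10010 ± 339 CPM in scramble (SD, n = 4 each). The log2 fold change, tDR over scramble, was -0.06 (95% interval -0.31 to 0.18, edgeR quasi-likelihood adjusted p = 0.833), and turned to 0.27 when libraries were scaled on microRNAs alone (adjusted p = 0.496). U2.20 and the 10 equal rows, of which U2.11 is the first, stayed within 0.2% of RNU2-1 in every library, so they describe 1 pool of reads. Per 100 bases of annotated length RNU2-1 had 5014 CPM in tDR and 5241 CPM in scramble libraries.

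U2.6, a further U2 row with no sequence in the files, had 964, 1163, 959 and 941 CPM in tDR libraries, against 813, 853, 823 and 803 CPM in scramble libraries. The groups did not overlap, and tDR library 2 stood above the other 3. The log2 fold change was 0.29 ± 0.14 (SE) with an adjusted p of 0.236 in edgeR, which missed the threshold of 0.05, and of 0.0334 in DESeq2, which passed it. U2.1 was within 1.3% of RNU2-38P in every library. It averaged 9.59 ± 2.60 CPM in tDR and 8.83 ± 3.36 CPM in scramble (SD, n = 4 each), a log2 difference of 0.11 (edgeR adjusted p = 0.874) that fell below 0 under total-count scaling.

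**Figure D1:**
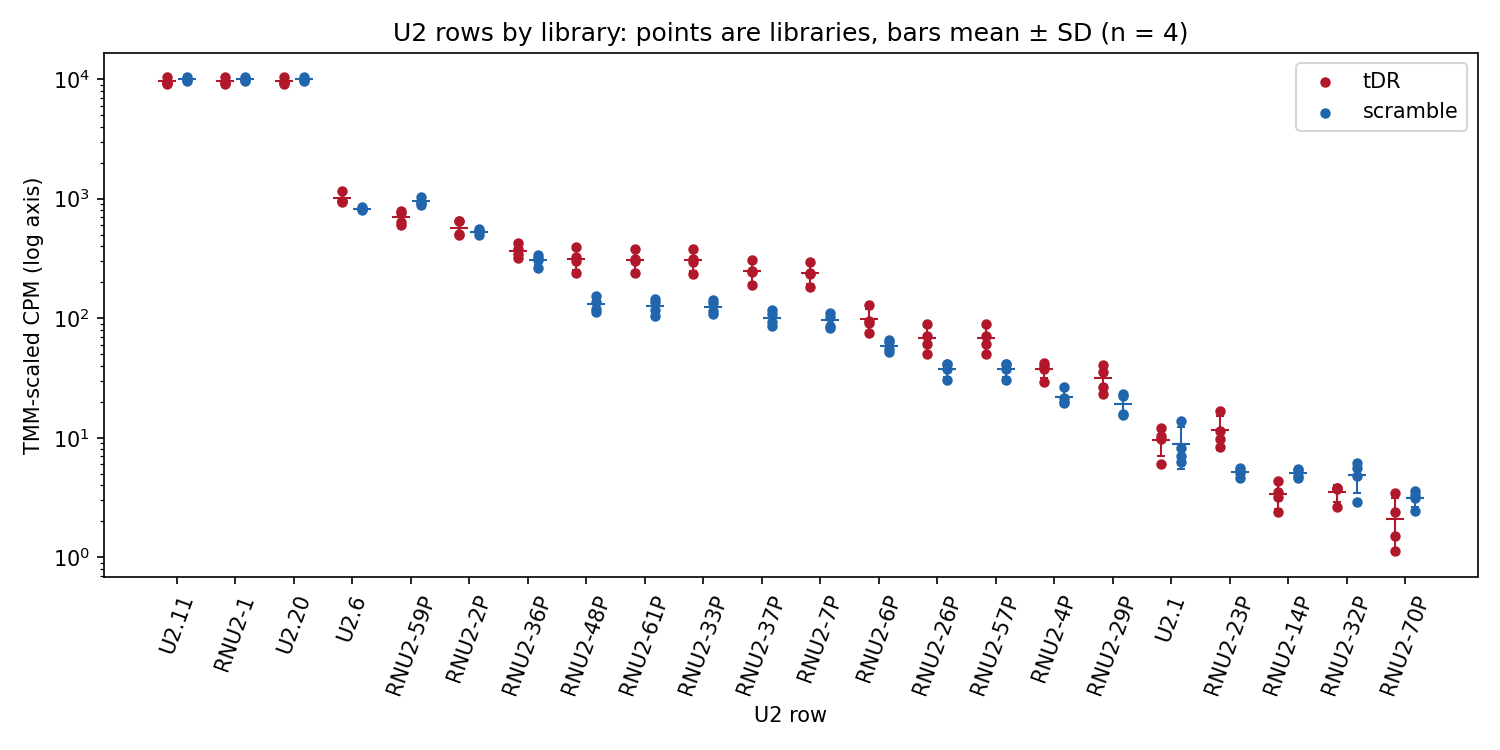
TMM-scaled CPM (log axis) of the named U2 rows, with tDR libraries in red to the left of scramble libraries in blue; points are libraries and bars the mean ± SD (n = 4). RNU2-1, U2.11 and U2.20 sit at the top with overlapping groups, and the red points of RNU2-48P, RNU2-61P, RNU2-33P, RNU2-37P and RNU2-7P all lie above the blue ones.

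Among the 37 tested pseudogene names, 11 rose in tDR libraries and 0 fell at an adjusted p below 0.05 (edgeR). All 11 calls of the U2 rows fell on pseudogene names, which is 21.6% of tested U2 rows and 29.7% of tested pseudogene names. With equal rows taken once, the 11 calls were among 42 tested U2 sets. Over all 1761 features tested, 5.34% were called higher and 1.36% lower. Several of the 11 rows had nearly equal counts (given below), so they stand for fewer than 11 separate signals. At an unadjusted p below 0.05, 16 pseudogene names were higher and 2 lower, against 12.8% of all features higher and 8.69% lower. DESeq2 called 13 U2 rows higher and 1 lower (background 7.38% higher and 3.46% lower). The median log2 fold change was 0.64 over the pseudogene names, against 0.02 over all features; total-count scaling put these medians at 0.46 and -0.13, and scaling on microRNAs at 0.97 and 0.36. Without tDR library 2 the pseudogene median was 0.30 (all features -0.02), and with only features averaging at least 50 counts it was 0.43 (all features -0.03). In 12 tested U2 rows every tDR library lay above every scramble library, the 11 among pseudogene names including RNU2-56P (log2 fold change 0.87, adjusted p = 0.179), and in 2 every tDR library lay below. Over all features those shares were 7.78% above and 5.51% below.

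The 5 copies with the 27-base string rose with the lowest p-values of the U2 rows. RNU2-7P had 182, 293, 241 and 235 CPM in tDR libraries 1 to 4, against 86.8, 102, 111 and 83.0 CPM in scramble libraries 1 to 4. Every tDR library lay above every scramble library, with tDR library 1 lowest and tDR library 2 highest of the tDR libraries. RNU2-33P had 235, 377, 314 and 297 CPM in tDR libraries, against 115, 133, 142 and 108 CPM in scramble libraries. RNU2-61P, with 237, 381, 316 and 300 CPM in tDR libraries and 117, 136, 144 and 105 CPM in scramble libraries, repeated that order of libraries within the tDR group. Counts of RNU2-33P, RNU2-48P and RNU2-61P were within 8.0% of each other in every library, and those of RNU2-7P and RNU2-37P within 6.9%. These 5 rises therefore cannot be read as 5 separate measurements.

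In fold terms the mean CPM of RNU2-7P was 2.48 times as high in tDR as in scramble libraries (238 ± 45.6 against 95.7 ± 13.1 CPM, SD, n = 4 each), a log2 fold change of 1.31 ± 0.17 (SE) with an adjusted p of 4.09e-05 (edgeR). RNU2-37P averaged 247 ± 48.8 CPM in tDR and 101 ± 13.8 CPM in scramble libraries (log2 fold change 1.29). RNU2-48P averaged 315 ± 62.2 CPM in tDR and 131 ± 17.7 CPM in scramble libraries (log2 fold change 1.27, adjusted p = 4.49e-05, edgeR). Across every alternative and every library left out, the log2 fold change of the 5 copies ranged from 1.10 to 1.67 and their highest adjusted p was 0.0030. RNU2-1 holds the same 27 bases and did not pass the test. The 5 copies gained 142 to 184 CPM each in tDR libraries, a size below the SD of RNU2-1 between tDR libraries (605 CPM).

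With RNU2-1 counts used as the library size, a setting added after the data were seen, each change is read relative to RNU2-1. The 5 copies then had log2 fold changes of 1.32 to 1.37, with 12 pseudogene names called higher and 0 lower (edgeR; background 7.21% higher and 0.965% lower). RNU2-55P was the copy added, at 1.51 ± 0.47 (SE) and an adjusted p of 0.0573 in the fit with TMM factors. Reads summed over all pseudogene names per 1000 RNU2-1 reads, a ratio free of library scaling, were 360, 417, 367 and 372 in tDR libraries, against 245, 288, 309 and 287 in scramble libraries. The groups did not overlap, and the sum counts a read again wherever it was assigned to several copies. The means were 379 ± 25.9 in tDR and 282 ± 26.6 in scramble (SD, n = 4 each). Without RNU2-59P and RNU2-2P, which had the highest CPM of the pseudogene names, the ratio was 247 ± 30.1 in tDR and 135 ± 18.4 in scramble.

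**Figure D2:**
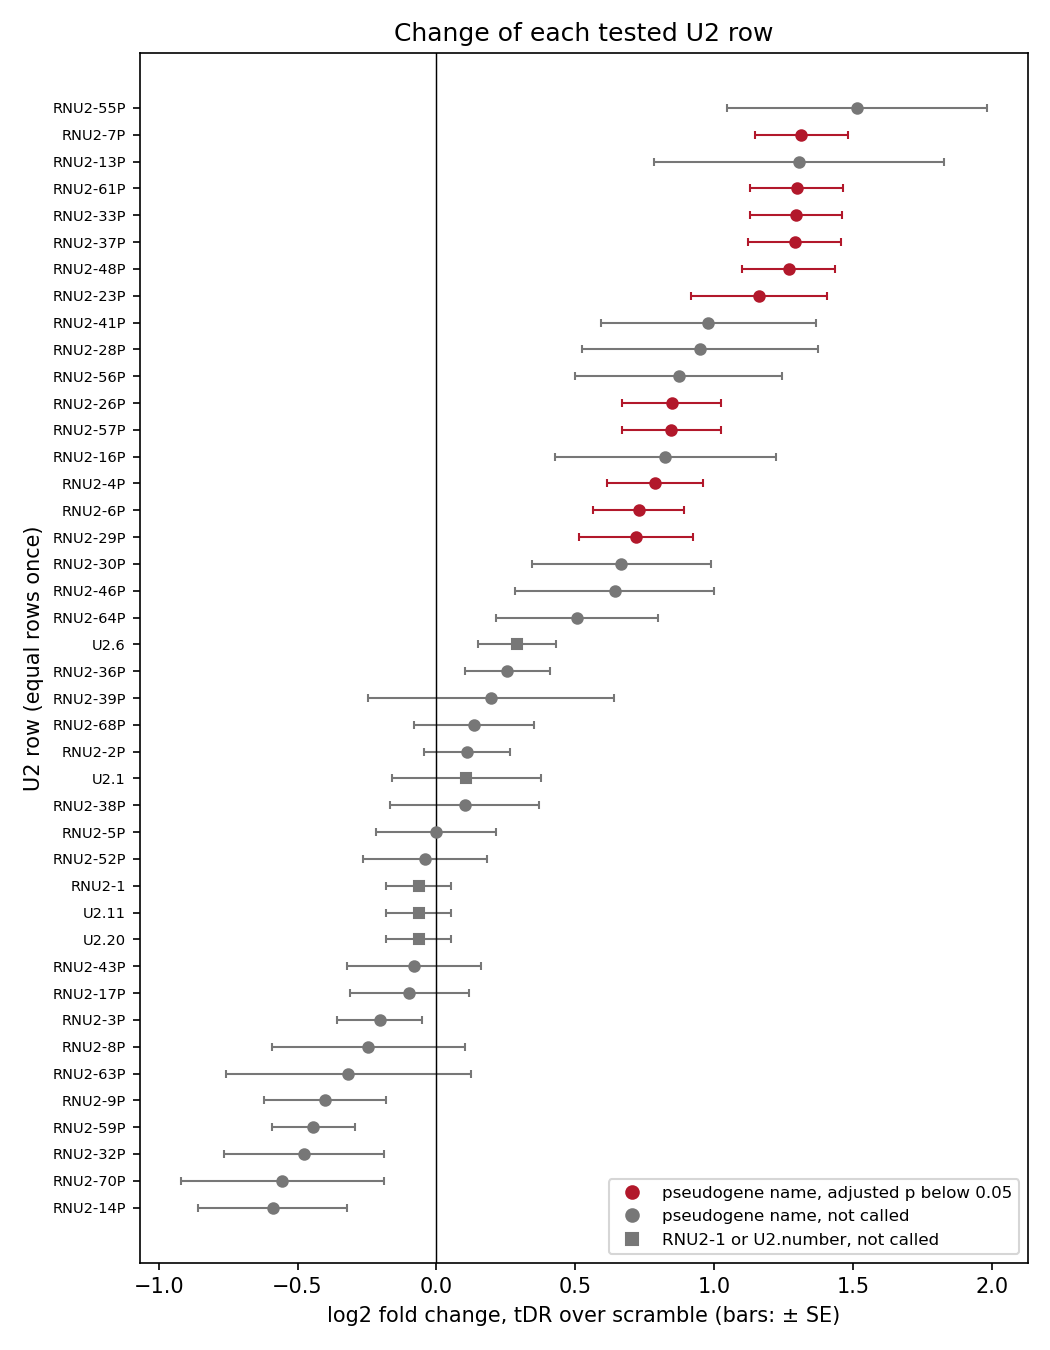
Log2 fold change, tDR over scramble, of each tested U2 row with equal rows taken once; bars are ± SE, red circles are pseudogene names with an adjusted p below 0.05, grey circles pseudogene names not called, and grey squares RNU2-1 and U2.number rows. The 11 red circles lie between 0.72 and 1.31, and RNU2-1 lies at -0.06.

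The remaining calls were sorted by how many bases of the 27-base string a copy holds in a row. The parts below are aligned to that region of RNU2-1, with the matching run in capitals, and show copies on either side of the calls. RNU2-6P (chr13:46374467-46374509, minus) and RNU2-26P (chrX:91798175-91798217, plus) were called. RNU2-29P (chr7:53776218-53776265, plus) and RNU2-4P (chr17:43387292-43387335, minus) were called as well. RNU2-59P (chr10:101364911-101364953, minus), RNU2-3P (chr15:95745886-95745928, plus) and RNU2-36P (chr9:86423004-86423046, minus) were not called.
RNU2-6P: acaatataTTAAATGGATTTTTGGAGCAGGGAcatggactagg
RNU2-26P: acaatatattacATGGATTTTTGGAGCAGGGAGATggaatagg
RNU2-29P: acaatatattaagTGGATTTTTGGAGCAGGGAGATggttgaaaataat
RNU2-4P: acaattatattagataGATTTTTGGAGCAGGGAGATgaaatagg
RNU2-59P: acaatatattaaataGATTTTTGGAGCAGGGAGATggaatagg
RNU2-3P: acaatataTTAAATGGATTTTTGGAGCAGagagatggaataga
RNU2-36P: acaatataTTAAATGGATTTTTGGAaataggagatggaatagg

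Substitutions are written with the RNU2-1 base first, its position in RNU2-1, then the base of the copy. RNU2-6P carries G115C, RNU2-26P carries A94C and RNU2-29P carries A95G, which leaves runs of 22 to 24 bases. RNU2-57P, on the Y chromosome, differs from RNU2-26P on the X chromosome at 1 of 191 bases and also carries A94C. RNU2-4P carries A94G and G97A, RNU2-59P carries G97A, RNU2-3P carries G112A and RNU2-68P carries T96G, each leaving 20 or 21 bases. RNU2-2P and RNU2-36P share G108A, C109A, A110T and G111A just after the Sm site.

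All 4 copies with 22 to 24 bases rose, by log2 0.72 to 0.85. RNU2-26P had 50.4, 89.3, 61.0 and 71.2 CPM in tDR libraries, against 37.7, 41.6, 41.8 and 30.4 CPM in scramble libraries (adjusted p = 0.00536, edgeR). RNU2-57P had counts within 0.3% of these in every library, so the pair stands for 1 signal. RNU2-6P, in an intron of RUBCNL, had 75.2, 129, 94.8 and 91.9 CPM in tDR libraries, against 65.2, 62.9, 55.5 and 52.4 CPM in scramble libraries. These groups did not overlap (log2 fold change 0.73, adjusted p = 0.0101, edgeR), and without scramble library 4 the adjusted p was 0.0555. RNU2-29P had 23.3, 40.7, 26.7 and 35.2 CPM in tDR libraries, against 15.4, 23.3, 22.2 and 15.8 CPM in scramble libraries. Its groups touched at tDR library 1, and its call (log2 fold change 0.72, adjusted p = 0.0383, edgeR) was lost without tDR library 2 or 4 or any 1 of the 4 scramble libraries (adjusted p 0.0598 to 0.161), under total-count scaling and when features averaging under 50 counts were dropped (adjusted p = 0.128 and 0.0704).

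Copies with 20 or 21 bases went separate ways. RNU2-4P had 40.1, 42.5, 37.6 and 29.5 CPM in tDR libraries, against 19.8, 21.3, 26.7 and 19.5 CPM in scramble libraries, with no overlap (log2 fold change 0.79, adjusted p = 0.00769, edgeR; 0.0678 with total-count scaling). RNU2-68P and RNU2-3P had log2 fold changes of 0.14 and -0.20 and were not called. RNU2-59P, which matches RNU2-1 at 95.3% of bases and lies in an intron of BTRC on the opposite strand, had 782, 764, 637 and 604 CPM in tDR libraries, against 887, 933, 944 and 1025 CPM in scramble libraries. Every tDR library lay below every scramble library. The means were 697 ± 89.3 CPM in tDR and 947 ± 57.3 CPM in scramble (SD, n = 4 each). The adjusted p of this difference was 0.0804 in edgeR (log2 fold change -0.44 ± 0.15, SE), and it was the U2 row called lower by DESeq2 (adjusted p = 0.00088).

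Of 24 tested copies with under 20 bases of the string, 1 was called. It was RNU2-23P, which lies on chromosome 11 outside protein-coding genes and had 8.45, 16.7, 11.4 and 9.77 CPM in tDR libraries, against 5.08, 5.59, 5.39 and 4.62 CPM in scramble libraries. The groups did not overlap (log2 fold change 1.16 ± 0.24, SE, adjusted p = 0.00536, edgeR). RNU2-23P carries G97A, G108A, A110T, G111A and G112A within the string. The 24 copies had a median log2 fold change of 0.15 and ranged from -0.59 to 1.51. Across the 37 copies, the run length and the log2 fold change had a Spearman correlation of 0.17, so the grading was not a trend over all copies; these copies share reads and libraries. The share of RNU2-1 bases matched in a copy ran from 38.2% to 95.8% (median 86.9%). It is low in short copies too: RNU2-38P, at 38.2%, is 79 bases long with 73 matched. This share had a Spearman correlation of 0.54 with mean CPM in scramble libraries and of -0.23 with the log2 fold change. Length and divergence of a copy were not separated in it.

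**Figure D3:**
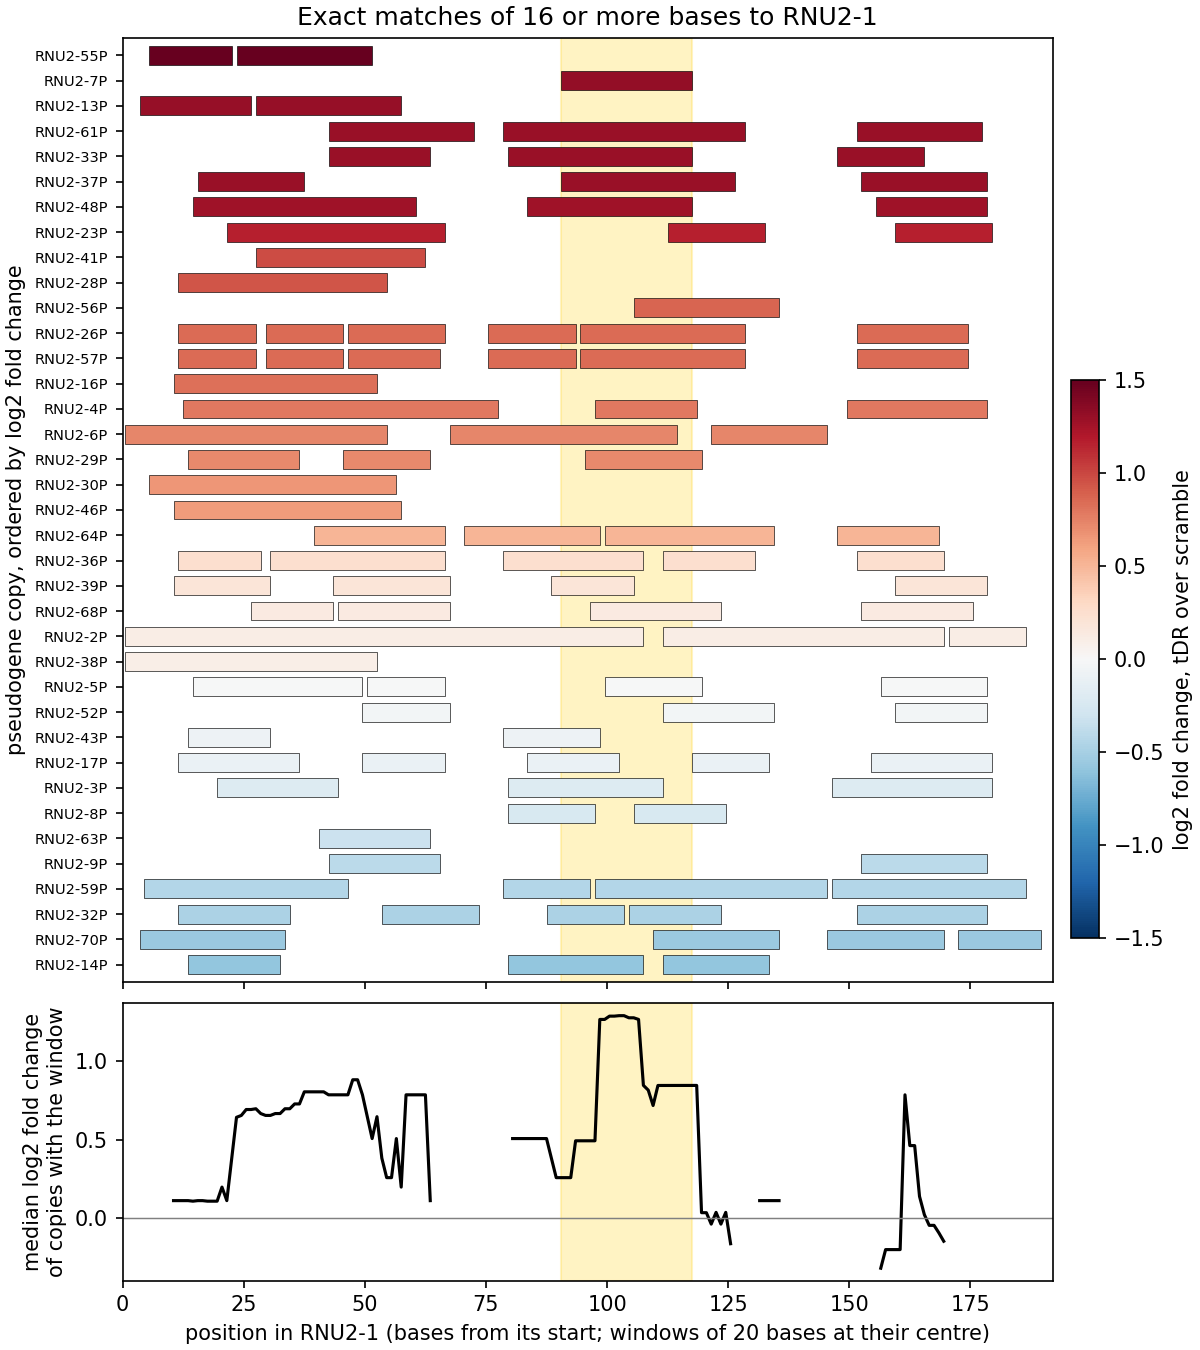
Upper panel, exact matches of 16 or more bases between RNU2-1 (x axis, bases from its start) and each tested pseudogene copy, ordered and coloured by log2 fold change; lower panel, the median log2 fold change of copies that hold each 20-base window (drawn for windows held by at least 3 copies). The shaded band is positions 91 to 117, chosen as the longest string shared by the 5 copies with the lowest p-values. Every window inside it is therefore held by those 5 copies, and the median of 1.29 reached there follows from that choice. Copies such as RNU2-55P and RNU2-13P have matches of 16 or more bases only near the start.

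A second region concerned copies that hold positions 28 to 51 of RNU2-1 (chr17:43233927-43233950, minus). It includes GTAGTA, the bases that pair with the intron branch point, shown in capitals at positions 33 to 38.
Positions 28 to 51: caagtGTAGTAtctgttcttatca
Of 71 sequences with an RNU2 name, 16 hold these 24 bases (22.5%), and of 1900 snRNA sequences 29 do (1.53%). Both sets were searched on both strands, with no match on the reverse strand. GTAGTA alone occurs in 36 of the 71 (50.7%) and in 68 of the 1900 (3.58%, with 11 on the reverse strand). 15 pseudogene copies in the table hold all of positions 28 to 51, of which 13 were tested. 11 of those lack a run of 22 bases of positions 91 to 117, and they had a median log2 fold change of 0.82 (0.10 to 1.51), with 2 called (RNU2-4P and RNU2-23P) and 6 higher at an unadjusted p below 0.05 (12.8% of all features were). The 17 tested copies with neither feature had a median of -0.10 (-0.59 to 0.87), with 0 called by edgeR, 1 higher and 2 lower at an unadjusted p below 0.05, and RNU2-59P called lower by DESeq2. These classes were formed after the values were seen, and their members may share reads. Among the 6, RNU2-28P had 8, 48, 32 and 22 reads in tDR libraries 1 to 4, and RNU2-41P had 13, 47, 34 and 20. The 6 therefore cannot be read as 6 separate measurements.

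Among the sparse copies with this 5′ region, RNU2-55P had 1.09, 5.77, 2.92 and 2.93 CPM in tDR libraries, against 1.27, 1.42, 1.12 and 0.61 CPM in scramble libraries. RNU2-13P had 0.68, 6.08, 2.64 and 1.95 CPM in tDR libraries, against 1.02, 1.71, 0.90 and 0.78 CPM in scramble libraries. In both copies tDR library 2 was highest; tDR library 1 lay among the scramble libraries for RNU2-55P and was the lowest of all 8 libraries for RNU2-13P. RNU2-28P, at 1.09, 7.48, 4.45 and 3.07 CPM in tDR libraries and 2.16, 2.56, 1.80 and 1.65 CPM in scramble libraries, was also lowest of all 8 libraries in tDR library 1. In 13 copies in the table, exact matches of 16 or more bases to RNU2-1 lay only within its first 67 bases; 9 were tested and 0 called (edgeR). Per RNU2-1 read, the 10 of them with positions 28 to 51 were all highest in tDR library 2 and lowest in tDR library 1 of the tDR libraries. That order was not particular to the 5′ region. All 5 copies with the 27-base string and all 4 with 22 to 24 of its bases had it too. Of the 17 tested copies with neither feature, 10 were highest in tDR library 2 and 2 lowest in tDR library 1. Without tDR library 1, RNU2-13P, RNU2-16P, RNU2-28P, RNU2-41P and RNU2-55P were also called higher, which made 16 calls (background 6.36% higher).

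**Figure D4:**
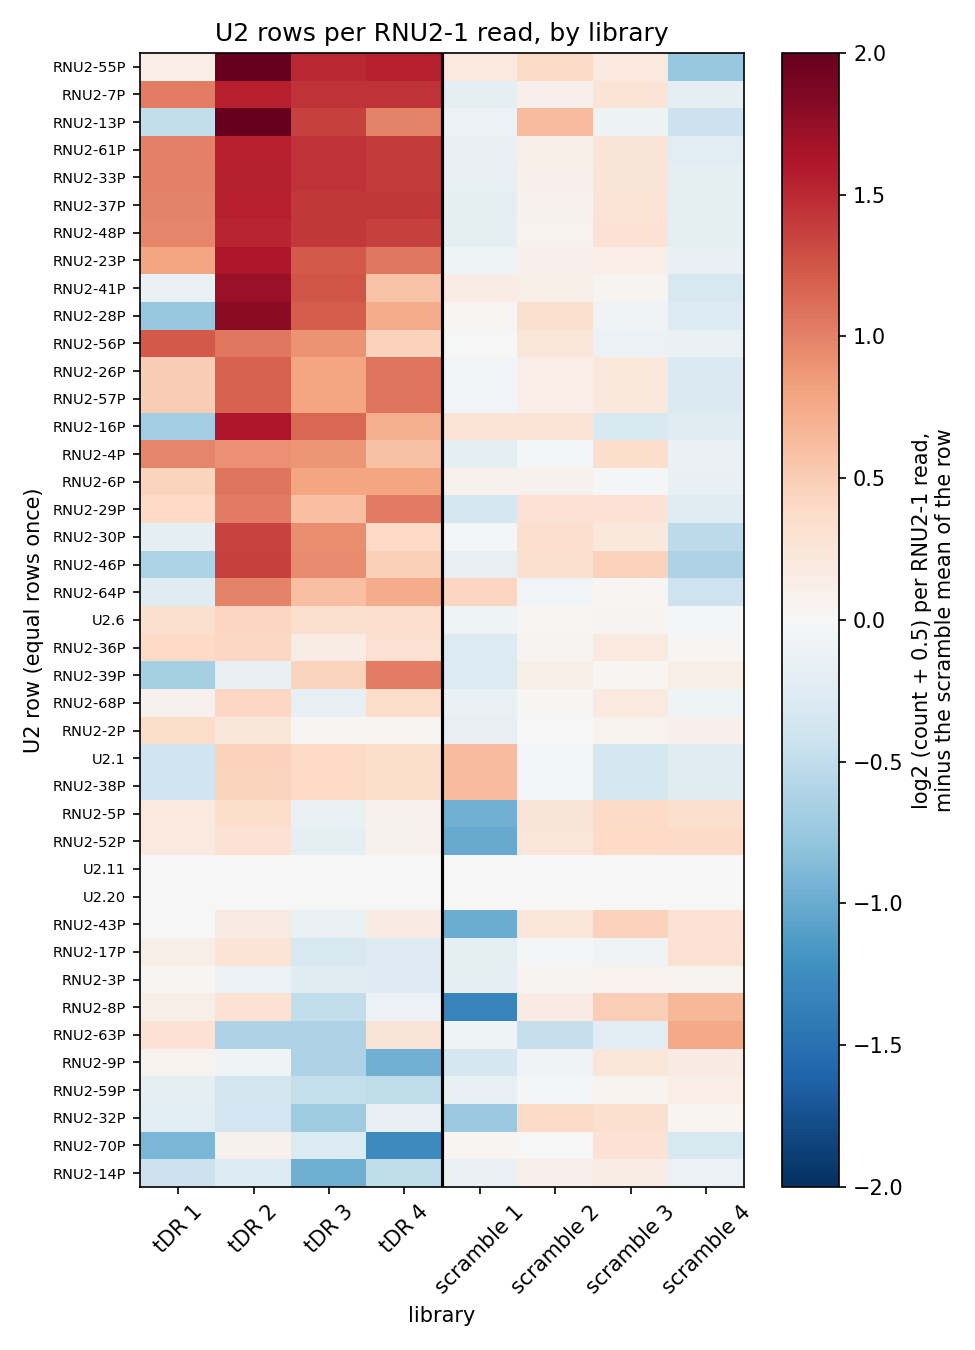
U2 rows per RNU2-1 read by library, as log2 of the count plus 0.5 per RNU2-1 read minus the scramble mean of the row, with tDR libraries left of the black line and scramble libraries right of it; rows are ordered by log2 fold change. tDR library 2 is darkest red for copies of the 5′ region such as RNU2-28P, for which tDR library 1 is blue, and scramble library 1 is blue for RNU2-5P, RNU2-52P, RNU2-43P and RNU2-8P.

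Other abundant copies did not pass the test. RNU2-2P, which overlaps a UTR of WDR74 on chromosome 11 and matches RNU2-1 at 95.8% of bases, had 645, 645, 502 and 494 CPM in tDR libraries, against 492, 533, 533 and 562 CPM in scramble libraries. The groups overlapped, at 571 ± 85.0 CPM in tDR and 530 ± 28.6 CPM in scramble (SD, n = 4 each). The log2 fold change was 0.11 (adjusted p = 0.787, edgeR) and turned to -0.04 with total-count scaling. RNU2-36P averaged 368 ± 48.2 CPM in tDR and 308 ± 30.9 CPM in scramble (log2 fold change 0.26, adjusted p = 0.351, edgeR).

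The lowest log2 fold changes belonged to sparse copies. RNU2-14P had 3.54, 4.36, 2.37 and 3.21 CPM in tDR libraries, against 4.83, 5.50, 5.39 and 4.62 CPM in scramble libraries. Its groups did not overlap, and the log2 fold change of -0.59 had an adjusted p of 0.212 (edgeR). RNU2-70P (-0.56, adjusted p = 0.407) and RNU2-32P (-0.48, adjusted p = 0.356) were not called by edgeR. Scramble library 1 was low for several copies: RNU2-52P had 52.5, 61.9, 39.5 and 46.9 CPM in tDR libraries, against 25.1, 57.6, 61.5 and 62.4 CPM in scramble libraries 1 to 4. RNU2-5P had 30.2 CPM there, against 67.5, 70.8 and 69.3 CPM in scramble libraries 2 to 4.

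Tested copies lie on 18 chromosomes. 16 of the 37 lie in protein-coding genes, 15 of them in introns and 6 on the opposite strand of the host. Among the 5 copies with the 27-base string, 3 lie in introns of different genes, each on the same strand as its host, and 2 in none. Strand cannot separate reads of a host gene from reads of a copy on the same strand. The labels do not state whether reads were counted by strand. Reads of a host gene and of a copy on its opposite strand therefore cannot be told apart here either.

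The partners of U2 were set beside it. Of 13 other major spliceosome snRNAs 0 were called by edgeR. Their median log2 fold change was 0.0035 (-0.15 to 0.41), with 2 at an unadjusted p below 0.05. Several U6 rows among them had near-equal counts, so the 13 are not separate measurements. Over all features 5.34% were called higher and 1.36% lower by edgeR, so 0 calls in lists this short say little. At an unadjusted p below 0.05 those shares were 12.8% and 8.69%. RNU1-1, the U1 gene that recognises 5′ splice sites, averaged 1033 ± 131 CPM in tDR and 779 ± 33.6 CPM in scramble libraries (log2 fold change 0.41, adjusted p = 0.0996, edgeR). Of 4 minor spliceosome snRNAs 0 were called, with RNU6ATAC lowest at -0.48 (adjusted p = 0.0662, edgeR; 1 at an unadjusted p below 0.05). Of 8 scaRNAs that guide modification of U2, 0 were called by edgeR, with a median of 0.10 and 1 at an unadjusted p below 0.05. That scaRNA was SCARNA8, at 2.40 ± 0.33 CPM in tDR and 1.23 ± 0.88 CPM in scramble (adjusted p = 0.173).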

How the data were processed

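Small RNA was measured in 4 tDR and 4 scramble libraries of HEK293 cells. The deposited counts are whole-number reads per feature, made by the authors from OTTR-seq libraries on build hg38, per the submitters' processing notes; the labels name no aligner, counter or annotation. The deposited normalized signal is each count divided by a factor per library, found by comparing both tables; it served as an alternative. 2 entries that name no gene (scr, scr2) were left out.

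Counts were fitted over all features in R 4.3.3 by the robust quasi-likelihood F test of edgeR 4.0.16, after TMM scaling and its expression filter by group, with no covariates and Benjamini-Hochberg adjusted p below 0.05 over 1761 features. The biological coefficient of variation was 19%. SE was taken as |log2 fold change| over √F. Alternatives used limma 3.58.1 on log2 of the signal plus 1, DESeq2 1.42.0, other scalings and filters, and left out each library. The fit was tested on simulated data. Sequences and coordinates come from GENCODE release 29 (GRCh38), aligned with Biopython 1.88; gene types come from RefSeq. Of 61 U2 rows 47 matched a GENCODE name, and the 14 U2.number rows have no sequence here. Replicate libraries differed by a chi-square of at least 13.2 per degree of freedom, so none was a copy of another.

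The members and lists were chosen with earlier results of these data known. The named genes are RNU2-1, U2.number rows averaging at least 20 counts, every called pseudogene name, the 5 pseudogene names with the highest mean CPM and the 3 with the lowest log2 fold change; RNU2-55P, RNU2-13P, RNU2-28P, RNU2-16P, RNU2-41P, RNU2-56P, RNU2-3P, RNU2-68P, RNU2-38P, RNU2-52P, RNU2-5P, RNU2-43P, RNU2-8P, RNU1-1, RNU6ATAC and SCARNA8 were named after their values were seen. Lists covered major and minor spliceosome snRNAs, scaRNA guides of U2, and microRNA markers. Of the latter, endothelial miR-126-3p (log2 fold change 0.47, adjusted p = 0.336, edgeR) and neural miR-9-5p (-0.10, adjusted p = 0.856, edgeR) were not called. Muscle microRNAs summed to 11 to 28 reads a tDR library and 2 to 24 a scramble library. Liver miR-122-5p was not among the features counted.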

Additional observations from a re-analysis of the deposited data

Results flagged for a closer look

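U2.6 was flagged because tDR library 2, at 1163 CPM, stood far from the other 3 tDR libraries (964, 959 and 941 CPM). RNU2-32P was flagged because tDR library 3, at 2.64 CPM, stood far below the other 3 tDR libraries (3.82, 3.74 and 3.77 CPM). 46 groups of 4 libraries were examined in this way and 2 were flagged; chance flags about 1 in 20 groups.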

How the results depend on the processing

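The count of U2 rows called higher was 11 and stayed between 8 and 13 under other scalings, filters, tools and the replicate block; it ranged from 9 to 16 when 1 library was left out. The count called lower was 0 and became 1, the row being RNU2-59P, with DESeq2 size factors, total-count scaling, features averaging at least 50 counts, the DESeq2 Wald test and limma on the normalized signal, and it ranged from 0 to 1 when 1 library was left out (1 without tDR library 1). With equal rows taken once the count called higher followed the same values. No called row had an equal row, so this could not change the count, and nearly equal rows still counted apart. The log2 fold change of RNU2-1 (-0.06) turned to 0.27 with TMM on microRNAs alone, as did U2.11 (0.27) and U2.20 (0.27). U2.1 (0.11) turned to -0.036 with total counts, and ranged from -0.027 to 0.39 when 1 library was left out, below 0 without tDR library 2 (-0.018), scramble library 3 (-0.027) or scramble library 4 (-0.019). RNU2-2P turned to -0.041 with total counts. The cause of these turns was not tested. Pseudogene reads per 1000 RNU2-1 reads differed by 96.8 (tDR minus scramble), and by 84.1 to 106 when 1 library was left out. Same-numbered tDR and scramble libraries did not deviate together (correlations -0.35, -0.18, -0.26 and -0.12), and no library correlated best with its own number. These values show no pairing by number. They cannot tell whether same-numbered libraries were handled together, which the labels do not state. A fit with the replicate block called 8 U2 rows and 2.16% of all features higher, without RNU2-29P, RNU2-4P and RNU2-6P, and gave RNU2-1 a log2 fold change of -0.07. Over the named rows other than RNU2-1 and all settings, 348 values kept direction and side of the threshold, 13 lost a call, 7 gained one and 7 reversed. The 9 tested copies whose exact matches of 16 or more bases lie only near the start of RNU2-1 average 11.2 to 71.2 reads a library, which limits what these libraries can resolve.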
